A study of Mus musculus with 11 samples.

Results

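The nuclear genes for the subunits of the 5 oxidative phosphorylation complexes were examined in lung epithelium of mouse embryos lacking 2 related transcriptional regulators. Members were all rows whose symbol follows the naming of these subunits (Nduf followed by A, B, C, S or V and a number, Sdha to Sdhd, Uqcr, Cox4 to Cox8 with a letter a to c, and Atp5), leaving out pseudogenes and the muscle isoform genes Cox7a1 and Cox8b. The rule itself uses no expression value, though it was chosen with earlier results of these data known. It gave 80 of the 24421 rows of the count table: 37 named for complex I, 4 for complex II, 8 for complex III, 14 for complex IV and 17 for complex V, the ATP synthase. Naming is not always placement: the protein of Ndufa4 is now assigned to complex IV, Cox7a2l encodes a factor that joins complexes, and Atp5s and Atp5sl are named for a likeness rather than as core subunits.

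The 5 PRDM3/16KO libraries came from embryos at E17.5, late in gestation, with floxed alleles of both Prdm16 and Prdm3 (the gene symbol of Prdm3 is Mecom) and the ShhCre allele, which drives Cre from the Shh locus in the early lung epithelium. The 6 Control libraries were of the same stage. Their label gives no alleles, and the series' design text calls them wild type. Cre came through fathers that were Prdm3fl/flPrdm16fl/wtShhCre+, bred to Prdm3fl/flPrdm16fl/fl mothers. Cells were taken from dissociated lungs on EpCAM microbeads, and poly(A) RNA was sequenced in bulk. The labels do not say whether each library is 1 animal, and the p-values below reflect library-to-library spread, which may be technical in part.

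Oxidative phosphorylation moves electrons from NADH (complex I) and succinate (complex II, also an enzyme of the TCA cycle) through coenzyme Q, complex III, cytochrome c and complex IV to oxygen. The proton gradient built on the way drives ATP synthesis by complex V. Most subunits are nuclear-encoded and made from genes active in nearly every cell, while a few have alternative forms tied to muscle, testis or low oxygen. In the lung before birth, alveolar type 2 cells spend much ATP and carbon on surfactant. By the symbols searched, 0 of 13 mitochondrially encoded subunit genes had a row in the count table, so they were not analysed here.

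Libraries held 7286156 to 7652477 counts in PRDM3/16KO and 6065906 to 7869787 in Control. Across genes, log2 values correlated at 0.957 to 0.99 within groups and 0.91 to 0.935 between them. The targeted genes check the labels only in part, since the counts cover whole genes and not the deleted exons: Prdm16 had a log2 fold change of -0.28 and Mecom of 0.64, both called. Of 9 epithelial markers 4 were lower (Sftpc at -1.31, Cldn18 at -0.67, Nkx2-1 at -0.28 and Cdh1 at -0.18) and 1 higher (Ager at 0.65), while Epcam did not pass (0.051). Together they summed to 7447 to 8332 CPM in PRDM3/16KO and 7989 to 9817 CPM in Control. Genes of other cells that the beads can carry over were higher in PRDM3/16KO: 6 of 10 mesenchymal markers, with a summed level of 428.6 to 781.5 CPM against 272.3 to 472.8 in Control, and 5 of 5 mesothelial markers, at 435.9 to 554.3 against 153.3 to 291.1 CPM. Of 5 tested immune markers 4 were higher, and of 5 tested endothelial markers 3 were higher and 1 lower. CPM is the count divided by the TMM-scaled library total, times 1e6. A list of 10 proliferation genes, of which 0 were called, summed to 287.8 to 422.9 CPM in PRDM3/16KO and 164.8 to 844.5 CPM in Control, where libraries 5 and 6 were the highest. The labels give no sex. Y-linked transcripts summed to 211.5 CPM in PRDM3/16KO library 4 and to 0.79 to 5.17 CPM in the others of that group. In Control they summed to 202.3 to 230.4 CPM in libraries 1, 3, 4 and 5, and to 1.24 and 0.25 CPM in libraries 2 and 6. Sex was thus unevenly spread over the groups by these levels, and its part was not tested.

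Most subunit genes moved little, and those that moved were mostly slightly lower in PRDM3/16KO. Of 75 members with enough counts to test, 3 were called higher (4.0%; among all 13916 genes tested, 21.1%) and 21 lower (28.0%; among all genes, 21.8%), and 51 did not pass. A call is an adjusted p under 0.05 by edgeR's quasi-likelihood test, and calls in either direction made up 32.0% of members and 42.9% of all genes. The 3 higher genes were Ndufa4l2, Cox6a2 and Uqcr10. The lower calls spanned a log2 fold change of -0.18 to -0.64, with a median of -0.31 (a drop of 11.6% to 35.9%, median 19.3%), and 20 of the 21 were smaller than 1.5-fold. Over the 75, the median log2 fold change was -0.16, against 0.0023 for all genes, and 53 members were below 0. Only 2 members reached a log2 fold change of 1 in either direction, and 94.7% stayed within 0.5 of 0, against 73.7% of all genes. The groups' CPM ranges did not overlap for 2 members with PRDM3/16KO above (all genes, 14.2%) and 11 with PRDM3/16KO below (all genes, 14.2%).

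Lower calls were more frequent among well-covered genes. Of 29 members averaging at least 20 CPM, 14 were lower and 2 higher (48.3% and 6.9%; all genes of that level, 28.4% and 17.6%), and of 46 below it, 7 were lower and 1 higher (15.2% and 2.17%; all genes of that level, 12.9% and 25.8%). The number of lower calls changed with the scaling and with a covariate. With library-size scaling alone, under which the median of all genes was 0.11, the members' median was -0.047. Then 6 of 75 were lower, among them Atp5d, Atp5g3 and Sdhd, a smaller share than in all genes (2107 of 13916). With the mesenchymal markers' mean as a covariate, 4 of 75 were lower, among them Atp5d and Uqcrc2, again a smaller share than in all genes (1784 of 13916). The median of the same 21 genes was then -0.30, with a median SE of 0.13 against 0.083 without the covariate. The part of cell composition in the 21 calls was not tested, and in bulk RNA fewer cells of a type and less RNA per cell cannot be told apart.

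**Figure D1:**
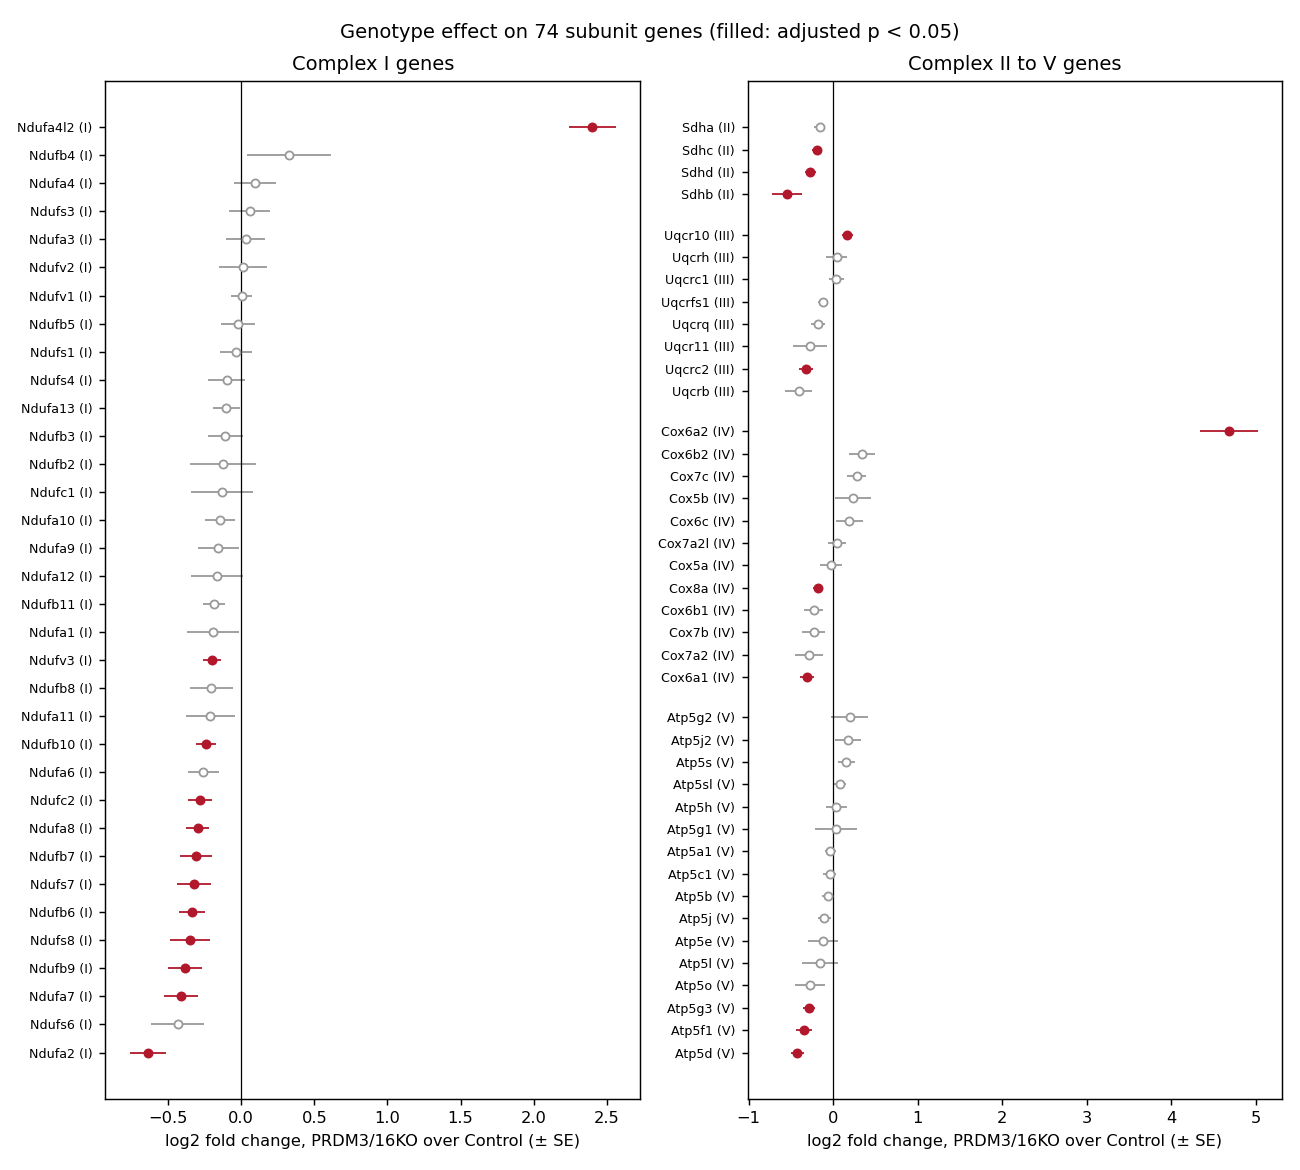
Log2 fold change of 74 tested subunit genes, PRDM3/16KO over Control, with its SE (edgeR; 5 and 6 libraries), ordered within each complex and with the complex in parentheses. Filled points have an adjusted p under 0.05. Ndufa4l2 and Cox6a2 stand far to the right at 2.40 and 4.68, and the others lie between -0.64 and 0.34.

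Ndufa4l2 was the member with the most reads behind a large change. It encodes a paralog of NDUFA4 whose gene is known from cultured cells as a target of the hypoxia-inducible factor HIF-1, with a product reported to lower complex I activity, and it is also used as a pericyte marker. The gene lies on chromosome 10, 127514967 to 127517154, plus strand (GRCm38). Its coding sequence and that of Ndufa4 (chromosome 6, 11900292 to 11907497, minus strand) are shown because the paralogs could have shared reads. Both are from the GENCODE M21 transcripts, and capitals mark the longest run of bases they share, of 28 bases.
Ndufa4l2: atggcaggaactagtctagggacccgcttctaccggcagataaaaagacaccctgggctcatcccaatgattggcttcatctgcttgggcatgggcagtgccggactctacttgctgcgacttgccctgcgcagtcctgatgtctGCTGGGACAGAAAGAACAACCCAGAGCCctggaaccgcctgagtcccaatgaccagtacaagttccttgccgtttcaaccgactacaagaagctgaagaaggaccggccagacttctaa
Ndufa4: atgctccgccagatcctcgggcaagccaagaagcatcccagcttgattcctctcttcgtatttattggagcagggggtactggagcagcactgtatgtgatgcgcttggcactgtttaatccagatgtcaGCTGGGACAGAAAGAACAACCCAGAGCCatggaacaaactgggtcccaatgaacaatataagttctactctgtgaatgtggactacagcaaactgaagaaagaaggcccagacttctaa
The 2 sequences matched at 161 of 249 aligned bases (64.7%) and shared 0 stretches of 50 bases. Ndufa4l2 had 104, 72.5, 106, 97.7 and 95.8 CPM in PRDM3/16KO libraries 1 to 5, against 13.6 to 28.2 CPM with a median of 17.3 in the Control libraries. Every PRDM3/16KO library was above every Control library, and the highest Control value was that of library 4. The means were 95.2 ± 13.4 CPM in PRDM3/16KO and 18.1 ± 5.38 CPM in Control (SD, n = 5 and 6). On the log2 scale the fold change was 2.40, with an SE of 0.16 (adjusted p = 4.06e-08 by edgeR). In the sum of both paralogs' CPM per kb of exon, Ndufa4l2 made up 94.1% to 96.0% in PRDM3/16KO and 73.5% to 84.0% in Control. By CPM per kb it ranked 7 of 80 members in PRDM3/16KO, at 87.0, and 24 of 80 in Control, at 16.6. Levels of different genes depend on how reads over introns were handled, which the sources used here do not state. The shares and ranks are therefore read with caution. Ndufa4 itself had 5.05 to 7.41 CPM in PRDM3/16KO and 4.63 to 6.75 CPM in Control (log2 fold change 0.093, SE 0.14, not called).

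Of the pericyte and smooth muscle markers, a list added after values were seen, 6 of 10 could be tested, 5 of them above 0, with a median log2 fold change of 0.53. Notch3 (0.57) and Tagln (0.59) were higher, Tagln losing its call under 13 of 24 alternatives, and Cspg4 (-1.17) was lower, a call lost without PRDM3/16KO library 2. Rgs5 and Higd1b had 45 and 8 counts over the PRDM3/16KO libraries against 47 and 8 over the Control libraries. The list's summed level was 142.3 to 238.4 CPM in PRDM3/16KO and 105.8 to 198.4 in Control; its part in the Ndufa4l2 result was not tested. Ndufa4l2 kept its call and a log2 fold change of 2.32 to 2.56 under all 24 alternatives, 2.40 with the mesenchymal covariate. Its exons overlap those of Shmt2 on the other strand by 32 of 1095 bases. Shmt2 had a log2 fold change of 0.21 (adjusted p = 0.0225), not called without PRDM3/16KO library 4 or 5 or Control library 2, and no source used here states the strand setting of the counting.

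Cox6a2 showed the larger ratio on far fewer reads. It encodes the heart and skeletal muscle form of subunit 6A of complex IV, for which Cox6a1 encodes the form of most other tissues. Cox6a2 is on chromosome 7, 128205435 to 128206387, minus strand, and Cox6a1 on chromosome 5, 115345642 to 115348981, minus strand (GRCm38, GENCODE M21). The pair is shown because the genes encode alternative forms of the same subunit. Capitals mark the longest shared run, of 12 bases, and of each the last 300 bases at most are printed.
Cox6a2: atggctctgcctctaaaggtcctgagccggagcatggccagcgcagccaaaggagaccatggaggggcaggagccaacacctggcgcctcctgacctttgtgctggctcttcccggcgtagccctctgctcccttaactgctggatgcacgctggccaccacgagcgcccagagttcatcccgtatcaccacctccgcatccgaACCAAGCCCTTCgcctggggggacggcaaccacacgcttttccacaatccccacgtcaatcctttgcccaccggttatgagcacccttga
Cox6a1: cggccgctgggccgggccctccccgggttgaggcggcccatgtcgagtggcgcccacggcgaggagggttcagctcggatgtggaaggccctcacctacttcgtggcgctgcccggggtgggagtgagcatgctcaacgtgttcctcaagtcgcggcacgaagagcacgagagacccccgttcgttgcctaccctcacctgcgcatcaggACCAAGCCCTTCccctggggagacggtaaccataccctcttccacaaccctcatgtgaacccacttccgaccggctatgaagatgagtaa
They matched at 184 of 294 aligned bases (62.6%), with 0 shared stretches of 50 bases. Cox6a2 had 37, 39, 51, 49 and 40 counts in PRDM3/16KO libraries 1 to 5, against 3, 0, 2, 1, 1 and 1 in Control libraries 1 to 6. The ranges were far apart: 4.90 to 6.52 CPM in PRDM3/16KO and 0 to 0.532 CPM in Control. On the log2 scale this was a fold change of 4.68 with an SE of 0.34 (adjusted p = 2.81e-08 by edgeR), and the ratio of summed counts, scaled for library size, was 28.0 (exact 95% interval 13.9 to 65.6, counting error only). Cox6a1 was lower, with 22.2 to 27.1 CPM in PRDM3/16KO, against 26.7 to 35.8 CPM in Control (log2 fold change -0.31, SE 0.084). In CPM per kb, Cox6a2 made up 16.9% to 20.9% of the pair in PRDM3/16KO and 0% to 1.66% in Control.

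Other muscle genes were uneven. The muscle isoform genes Cox7a1 and Cox8b, outside the members, had 18 and 7 counts over the PRDM3/16KO libraries and 17 and 1 over the Control libraries. Of 12 cardiac muscle markers 5 could be tested and 4 were higher: Myh7 (log2 fold change 1.28), Ryr2 (1.33), Nppa (3.11) and Myl7 (0.81), the last losing its call under 9 of 24 alternatives. The list's summed level was 170.1 to 228.1 CPM in PRDM3/16KO and 68.7 to 116.2 in Control, mostly Myh7. Yet Myl2, the ventricular light chain, had 0 counts in every library, Myl3 had 1 count in each group, and Tnnt2 had 33 counts over PRDM3/16KO libraries and 9 over Control libraries. Of 6 skeletal muscle markers only Acta1 could be tested (0.28, not called), and Tnnt3 had 59 counts in PRDM3/16KO and 6 in Control. The part of muscle cells in the Cox6a2 result was not tested. Itgad, whose exons overlap 70 of the 680 exon bases of Cox6a2 on the other strand, had 52 counts in PRDM3/16KO and 2 in Control, and reads of the overlap cannot be told apart. The Cox6a2 call held under all 24 alternatives (log2 fold change 4.42 to 5.11).

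**Figure D2:**
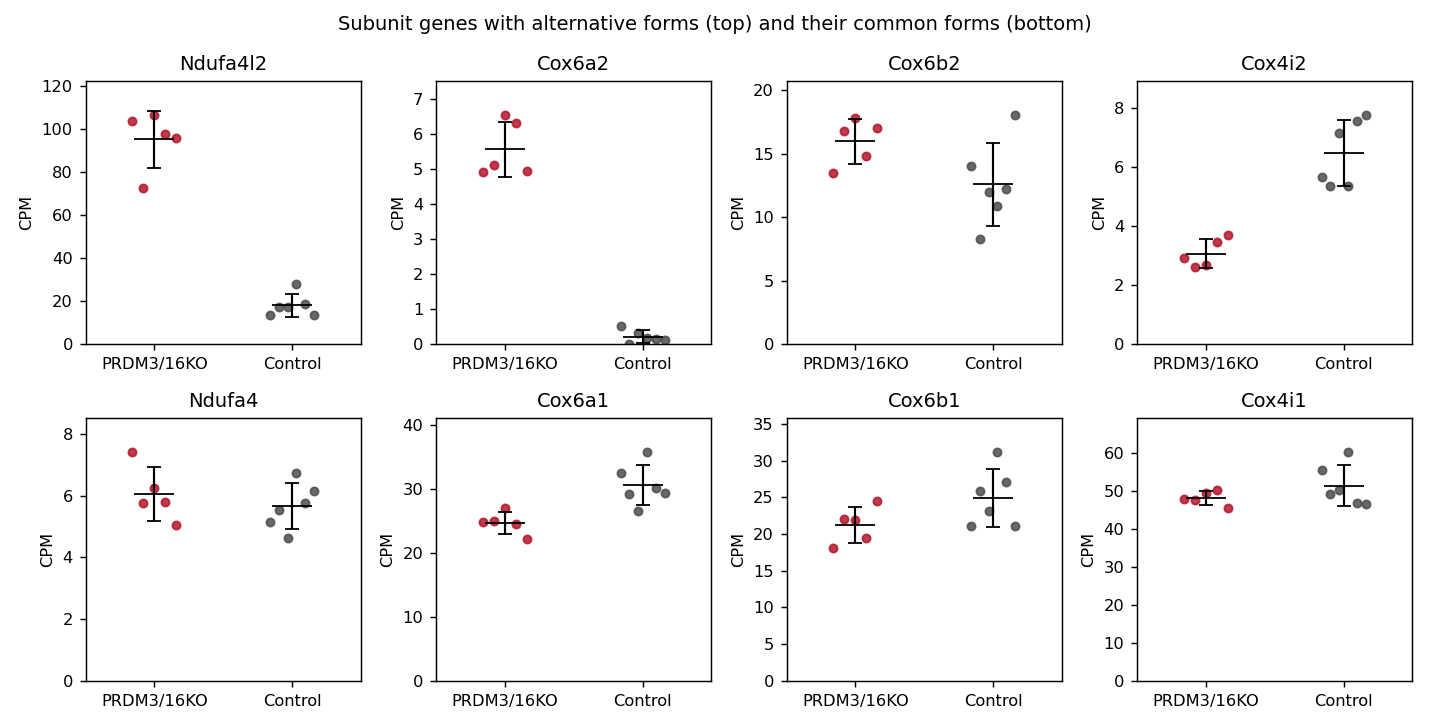
CPM in each library (points), with group mean and SD (bars; n = 5 PRDM3/16KO, left, and 6 Control, right), for 4 genes of alternative subunit forms (top) above the common form of the same subunit (bottom). Ndufa4l2 and Cox6a2 are higher and Cox4i2 lower in PRDM3/16KO without overlap, while the ranges of Cox6b2, Ndufa4, Cox6a1, Cox6b1 and Cox4i1 overlap.

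In the other isoform pairs the alternative form was called lower once and not called once. Cox4i2, the form of subunit 4 known from lung and low oxygen, falls outside the symbol rule. It had 2.91, 2.62, 2.69, 3.47 and 3.70 CPM in PRDM3/16KO, against 5.37 to 7.77 CPM with a median of 6.43 in Control, without overlap (log2 fold change -1.08, SE 0.17; adjusted p = 9.53e-05). Its common form Cox4i1 had a log2 fold change of -0.091, not called. Cox4i2 made up 9.67% to 13.8% of the pair's CPM per kb in PRDM3/16KO and 14.9% to 24.7% in Control. Cox6b2, the testis form of subunit 6B, had 13.5 to 17.8 CPM in PRDM3/16KO and 8.28 to 18 CPM in Control, where library 6 was highest, and did not pass (0.34, SE 0.16, adjusted p = 0.0966). Under 3 of 24 alternatives it was called higher: the replicate block, leaving out Control library 6, and leaving out Control libraries 5 and 6 (log2 fold change up to 0.51, smallest adjusted p = 0.00769, largest over the alternatives 0.837 by edgeR). Its share of the pair's CPM per kb was 30.7% to 34.2% in PRDM3/16KO and 17.0% to 35.3% in Control. Cox7b2 and Cox8c, testis forms as well, had 0 counts in every library.

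Among complex I genes other than the Ndufa4 pair, 12 of 33 tested were lower and 0 higher (all genes, 21.8% lower). Lower calls in complex I numbered 3 with library-size scaling and 2 with the mesenchymal covariate. Within the catalytic core, which carries the NADH site, the iron-sulfur clusters and the quinone site, Ndufs7 (log2 fold change -0.32, SE 0.12) and Ndufs8 (-0.35, SE 0.14) were lower, calls that were lost under 14 and 17 of 24 alternatives, among them 6 and 8 of the 11 omissions of a single library. Ndufv1 (0.0028) and Ndufv2 (0.013), at the NADH site, did not pass. Ndufs7 had 12.2, 9.05, 10.4, 13.6 and 10.7 CPM in PRDM3/16KO, against 11.97 to 15.2 CPM with a median of 14.5 in Control, with overlapping ranges (adjusted p = 0.0375).

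The accessory subunits, which surround and stabilise that core, gave 9 lower calls in 26 tested, with 24 below 0. Ndufa2, a small matrix-side subunit, had the largest fall: 5.56, 7.34, 5.50, 5.65 and 6.53 CPM in PRDM3/16KO, against 8.46 to 10.4 CPM with a median of 9.55 in Control (log2 fold change -0.64, SE 0.12; adjusted p = 5.99e-04). The ranges were apart on modest counts, 238 over the PRDM3/16KO libraries and 385 over the Control libraries. With the mesenchymal covariate Ndufa2 was not called. Its exons overlap Tmco6 on the other strand, which did not pass (0.068). Ndufa8 (-0.30), Ndufb6 (-0.34) and Ndufa7 (-0.41) were lower too; 31.6% of the 50-base stretches of Ndufb6 also occur in other genes. Ndufb11, which had the most counts per kb of complex I over all libraries (in PRDM3/16KO alone Ndufa4l2 had more), did not pass (-0.19, SE 0.074, adjusted p = 0.0555). Leaving out Ndufa4l2, the summed level of complex I genes was 483.2 to 526.6 CPM in PRDM3/16KO and 562.7 to 635.2 CPM in Control, without overlap (ratio of means 0.870). Per 1e6 counts of the unscaled total the sums overlapped, at 501 to 550 in PRDM3/16KO and 529 to 605 in Control (0.936). With Ndufa4l2 the sums overlapped, at 586.9 to 633.0 and 580.0 to 663.4 CPM.

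Complex II genes were all below 0, with a lower TMM-scaled sum. Of the 4 genes 3 were called lower (all genes, 21.8%). Sdhd, a membrane anchor, had 115, 115, 120, 121 and 120 CPM in PRDM3/16KO, against 128 to 166 CPM with a median of 141 in Control (log2 fold change -0.27, SE 0.064; adjusted p = 0.00317). Sdhc, the other anchor, had 96.6 to 101 CPM in PRDM3/16KO and 106 to 126 CPM in Control (-0.19, SE 0.056; adjusted p = 0.0117). Neither pair of ranges overlapped, and Control library 4 was the highest for both. Sdhb, the iron-sulfur subunit, fell by more on few counts, with 2.43 to 4.07 CPM in PRDM3/16KO and 3.58 to 5.43 CPM in Control (-0.54, SE 0.18; adjusted p = 0.0230), a call lost under 7 of 24 alternatives, among them leaving out PRDM3/16KO library 3, 4 or 5. Sdha, the catalytic flavoprotein, did not pass (-0.16, SE 0.066, adjusted p = 0.0673). Summed CPM of the 4 was 280.1 to 301.2 in PRDM3/16KO and 321.6 to 385.4 in Control, without overlap (ratio of means 0.857). Per 1e6 counts of the unscaled total the sums overlapped, at 290.4 to 311.3 in PRDM3/16KO and 299.9 to 364.1 in Control (0.923). With library-size scaling 1 of the 4 was called, and with the mesenchymal covariate 0.

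In complex III the moves were small in both directions. Uqcrc2, a core protein of the matrix arm, had 19.2, 23.4, 23.8, 22.2 and 22.7 CPM in PRDM3/16KO, against 25.5 to 32.0 CPM with a median of 27.2 in Control, without overlap (-0.32, SE 0.082; adjusted p = 0.00565). Uqcr10, a small accessory subunit, was higher at 31.9 to 36.6 CPM in PRDM3/16KO and 28.3 to 33.1 CPM in Control (0.17, SE 0.065; adjusted p = 0.0484), a call lost under 17 of 24 alternatives, among them 9 of the 11 omissions of a single library. The Rieske protein gene Uqcrfs1, with the most counts per kb of the complex, did not pass (-0.12, SE 0.052, adjusted p = 0.0768).

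In complex IV the median log2 fold change was 0.0084, and 6 of 12 tested genes lay on each side of 0. Of the 9 ubiquitous subunits, Cox6a1 and Cox8a were lower and 7 did not pass. Cox8a, a small membrane subunit and the member with the most counts per kb of all 80, had 88.6, 81.8, 84.3, 89.7 and 88.5 CPM in PRDM3/16KO, against 91.8 to 113 CPM with a median of 95 in Control (-0.18, SE 0.063; adjusted p = 0.0339). The ranges were close but did not overlap, and the call was lost under 11 of 24 alternatives, among them leaving out PRDM3/16KO library 1, 2, 3 or 5. Cox7a2l, which joins complexes III and IV, did not pass (0.045), nor did Cox7a2 (-0.28) and Cox6b1 (-0.23).

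The ATP synthase genes were nearly level, with 3 of 16 lower and a median of -0.052. In the F1 head, which makes ATP, Atp5d (the delta subunit of the rotor stalk) fell to 124, 135, 133, 145 and 123 CPM in PRDM3/16KO libraries, against 160 to 200 CPM with a median of 170 in Control (-0.42, SE 0.076; adjusted p = 3.25e-04). The ranges were well apart, and the call held under all 24 alternatives. The other F1 genes did not pass, among them Atp5b (-0.064), Atp5a1 (-0.031) and Atp5c1 (-0.041). Atp5b had 440 to 465 CPM in PRDM3/16KO and 429 to 530 CPM in Control. In the membrane part and stalk, Atp5g3 (-0.29, SE 0.067) and Atp5f1 (-0.34, SE 0.098) were lower. Atp5g1, Atp5g2 and Atp5g3 encode the same mature subunit c of the membrane rotor. Atp5g3 made up 91.4% to 93.7% of their CPM per kb in PRDM3/16KO and 91.8% to 96.0% in Control, while Atp5g1 (0.036) and Atp5g2 (0.20) did not pass. The 3 genes are not equally countable: 11.1% of the 50-base stretches of Atp5g1 and 38.3% of those of Atp5g2 also occur in other genes, against 0% for Atp5g3. The part of shared sequence in these shares was not tested.

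**Figure D3:**
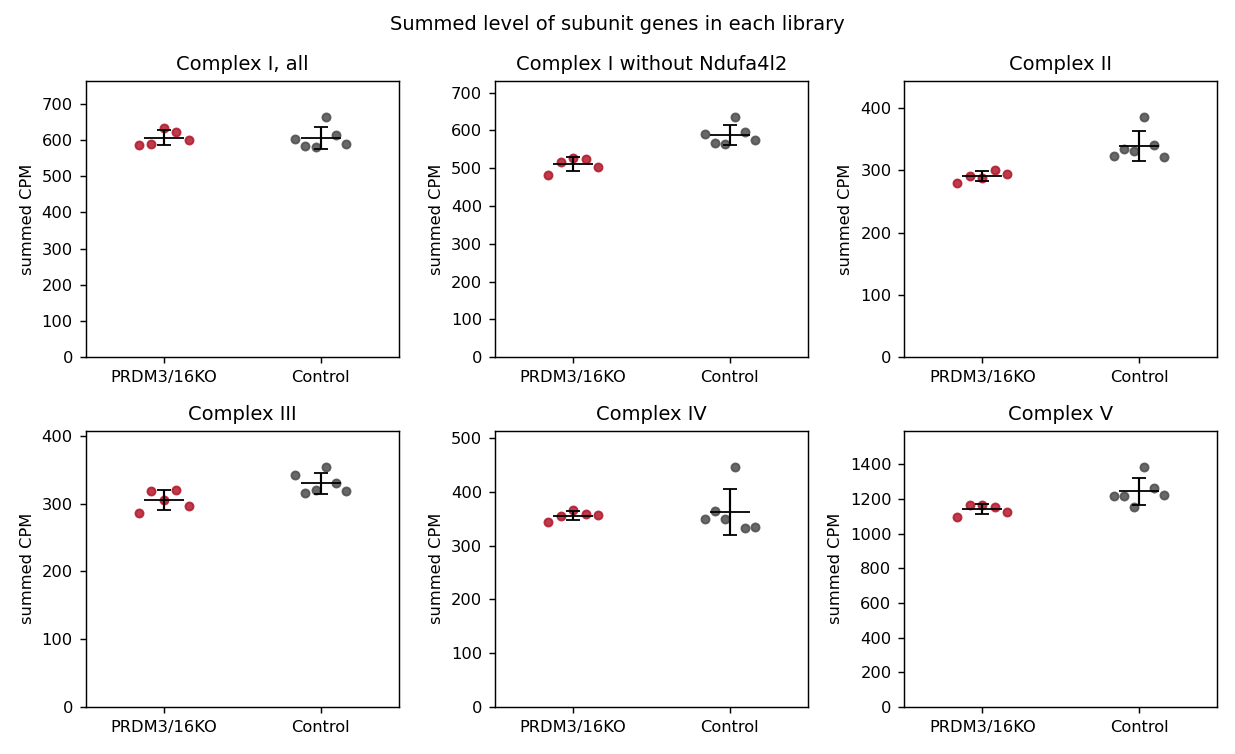
Summed CPM of the subunit genes named for each complex in each library (points; mean and SD as bars; n = 5 PRDM3/16KO, left, and 6 Control, right), with complex I also drawn without Ndufa4l2. The groups do not overlap for complex II (280.1 to 301.2 against 321.6 to 385.4) and for complex I without Ndufa4l2, and overlap in the other panels; Control library 4 is the highest in each.

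Over all 80 genes the summed level was 2593 to 2759 CPM in PRDM3/16KO and 2731 to 3235 CPM in Control, with overlapping ranges (ratio of means 0.937). As a share of all unscaled counts the genes took 0.269% to 0.288% in PRDM3/16KO and 0.257% to 0.306% in Control (ratio 1.01). The sign of the summed difference, Ndufa4l2 included, thus follows the scaling. Ndufa4l2 weighs on it: for complex I alone the unscaled ratio was 1.08 with this gene and 0.936 without it.

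Promoter sequence was read for members with an entry in RefSeq's table (GRCm38.p6, 250 bases before to 50 after each gene's start), 65 of 80. Ndufa4l2 and Cox6a2 were not among them. Motifs known from nuclear genes for mitochondria were searched on both strands, chosen with the values known: the NRF1 core (CGCNTGCG), ERR (TCAAGGTCA), GABPA (CCGGAAG), YY1 (AAGATGGC) and the ZNF143 core (CTACAATTC). The NRF1 letters were in 26 of the 65 (40%; 9.22% of all 27025 genes), GABPA in 16 (24.6%; 9.93%), YY1 in 10 (15.4%; 3.19%), and ERR and ZNF143 in 2 each (3.08%; 0.466% and 0.403%). Among 15 genes called lower, NRF1 was in 7, GABPA in 7 and YY1 in 1, and among 45 not called, they were in 15, 8 and 9. Uqcr10, the 1 gene called higher with an entry, held NRF1 and ZNF143 letters. The other gene with ZNF143 letters was Atp5d, called lower. A gene with several entries counts where any of them holds the letters. Atp5d thus counts for NRF1 through its entry that is not printed below. The 2 promoters with ERR letters were those of Sdhd and Atp5g3, both called lower. These and the promoters of Cox6a1 and Atp5d are shown for the lower genes of complexes II, IV and V, 5′ to 3′ on the gene's strand, with motif matches in capitals, in either orientation: for Sdhd (chr9:50603800-50604099, minus strand) NRF1, GABPA and ERR, for Atp5g3 (chr2:73911277-73911576, minus strand) ERR and NRF1, for Cox6a1 (chr5:115348909-115349208, minus strand) NRF1 at separate places and GABPA, and for Atp5d (chr10:80142025-80142324, plus strand, 1 of its 2 entries) ZNF143.
Sdhd: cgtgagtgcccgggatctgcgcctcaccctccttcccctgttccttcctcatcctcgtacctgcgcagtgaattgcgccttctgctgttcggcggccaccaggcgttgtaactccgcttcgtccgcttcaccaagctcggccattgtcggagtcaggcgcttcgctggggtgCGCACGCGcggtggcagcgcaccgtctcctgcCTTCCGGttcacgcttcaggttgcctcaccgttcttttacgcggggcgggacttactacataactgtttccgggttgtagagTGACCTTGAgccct
Atp5g3: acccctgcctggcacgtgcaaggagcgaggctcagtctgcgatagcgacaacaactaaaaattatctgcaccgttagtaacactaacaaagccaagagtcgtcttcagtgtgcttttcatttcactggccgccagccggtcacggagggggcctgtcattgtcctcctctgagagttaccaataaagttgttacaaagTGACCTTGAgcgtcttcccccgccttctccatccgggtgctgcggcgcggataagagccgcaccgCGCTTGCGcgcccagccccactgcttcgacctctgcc
Cox6a1: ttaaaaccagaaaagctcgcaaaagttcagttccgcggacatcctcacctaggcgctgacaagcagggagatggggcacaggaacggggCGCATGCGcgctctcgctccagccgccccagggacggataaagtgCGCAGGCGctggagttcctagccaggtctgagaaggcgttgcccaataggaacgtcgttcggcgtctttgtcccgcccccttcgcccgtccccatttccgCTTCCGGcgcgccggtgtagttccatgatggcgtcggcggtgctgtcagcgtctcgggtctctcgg
Atp5d: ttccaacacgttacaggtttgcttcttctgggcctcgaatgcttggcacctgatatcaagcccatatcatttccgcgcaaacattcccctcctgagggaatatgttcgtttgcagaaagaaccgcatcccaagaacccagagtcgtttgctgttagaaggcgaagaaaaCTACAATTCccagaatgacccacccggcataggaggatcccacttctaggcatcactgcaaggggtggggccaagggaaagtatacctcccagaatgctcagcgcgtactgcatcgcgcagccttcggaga
The matches of different motifs in these 4 sequences do not overlap each other. A match is a run of letters and not a shown binding site.

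Of the factors known for these motifs and their partners, the coactivator gene Ppargc1a moved most. It had 60.4, 48.8, 70.6, 57.8 and 57.8 CPM in PRDM3/16KO, against 69.9 to 196 CPM with a median of 158 in Control (log2 fold change -1.28, SE 0.22; adjusted p = 3.31e-04). Control library 6, at 69.9 CPM, lay within the PRDM3/16KO range, and the other 5 Control libraries were above it. Gabpb1, a partner of GABPA, fell (-0.49), as did Nrf1 (-0.19) and Polg (-0.50), the mitochondrial DNA polymerase. Esrrg (0.59), Esrra (0.24) and Ssbp1 (0.25) were higher. Leaving out 1 library ended the calls of Nrf1 (PRDM3/16KO library 2), Ssbp1 (PRDM3/16KO library 4) and Esrra (PRDM3/16KO or Control library 5). Gabpa (-0.092), Tfam (-0.022), Yy1 (-0.031), Pprc1 (0.17) and Ppargc1b (0.35) did not pass. In all, 3 of 18 biogenesis regulators were higher and 4 lower (16.7% and 22.2%, against 21.1% and 21.8% of all genes).

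Genes that assemble the complexes went both ways. Of 15 complex I assembly factors, 3 were higher (20%, against 21.1% of all genes) and 0 lower, with a median of 0.026. The higher ones were Ndufaf4 (0.63), Tmem186 (0.38) and Ndufaf1 (0.34), the last lost without PRDM3/16KO library 1 or 4 or Control library 1 or 3. Of 13 factors for complexes II, III and V, 0 were called, the log2 fold changes running from -0.21 to 0.23. For complex IV, 5 of 21 were lower (23.8%, against 21.8% of all genes) and 1 higher. Among the lower were Cox10 (-0.56), a heme A enzyme, Cox19 (-0.45) and Coa3 (-0.21), the last lost without PRDM3/16KO library 1. In coenzyme Q synthesis 1 of 10 was lower, Coq7 (-0.42), a call lost under 14 of 24 alternatives, among them 6 omissions of a single library. The remaining subunits and carriers outside the symbol rule, Cyc1 (-0.059), Cycs (0.10) and Ndufab1 (0.21), did not pass.

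Neighbouring pathways held larger falls than any subunit gene in the symbol rule. In the TCA cycle and pyruvate entry, 5 of 19 genes were lower and 1 higher (26.3% and 5.26%, median -0.079). Of all genes tested, 21.8% were lower and 21.1% higher. Pcx, which makes oxaloacetate from pyruvate, had 46.8 to 53.6 CPM in PRDM3/16KO and 119 to 192 CPM in Control (-1.62). Idh2 (-0.69) and Dlst (-0.38) were lower and Cs, citrate synthase, was higher (0.32). In glycolysis 9 of 17 were lower and 0 higher (median -0.27), led by Ldha at 161 to 201 CPM in PRDM3/16KO and 347 to 456 CPM in Control, with Hk1 at -0.66 and Pdk1 at -0.38; 5 of the 17 were above 0, none called. Of 8 mitochondrial antioxidant genes 4 were lower, among them Sod2 (-0.82), Prdx5 (-0.52) and Prdx3 (-0.47), and 1 higher. Among protein import and chaperone genes 3 of 23 were lower and 2 higher (13% and 8.7%, both below the shares of all genes). Mitochondrial ribosomal proteins were lower in 11 of 74 cases and higher in 4 (14.9% and 5.41%, median -0.11). Cytosolic ribosomal proteins were lower in 6 of 77 and higher in 15 (7.79% and 19.5%, median 0.086). These shares too were below those of all genes.

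**Figure D4:**
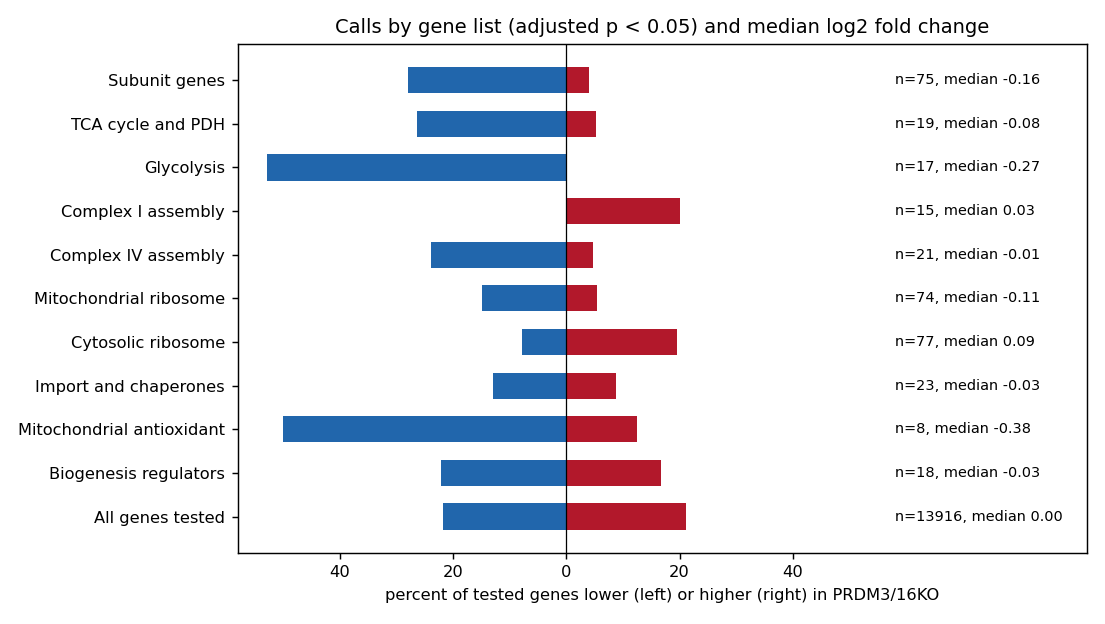
Percent of tested genes called lower (left, blue) and higher (right, red) in PRDM3/16KO for each gene list (edgeR, adjusted p under 0.05), with the number tested and the median log2 fold change. Subunit genes have 28.0% lower and 4.0% higher, and all 13916 genes have 21.8% and 21.1%.

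Not every subunit gene could be measured. Ndufa5, Atp5k and Ndufs5 had too few counts to test, besides Cox7b2 and Cox8c. Ndufs5, a subunit of every complex I, had 1 count in all 11 libraries, and the glycolytic gene Eno1, outside the members, had 2. A 50-base stretch was shared with a pseudogene in 35 of the 80 members, whose median level was 5.32 CPM per kb, against 9.90 in the 45 without one. The part of reads that match several places in these levels was not tested. Exons of 28 members overlap those of another gene.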

How the data were processed

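Poly(A) RNA of 11 libraries was measured, and the authors deposited raw counts per gene as whole numbers in 1 table. The submitters' processing notes name HTSeq 2.0, Bowtie2 2.4.2, Picard 2.18.22, Trim Galore 0.4.2, FastQC, DESeq2 and SAMtools 1.10.0, and build mm10. Not given in the sources used here are their roles, the strand setting and the treatment of reads that match several places. Bowtie2 does not split reads over introns, so levels of different genes are compared with caution.

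Here the counts were tested with edgeR 4.0.16 (R 4.3.3; TMM scaling, filterByExpr, robust quasi-likelihood F-test, two-sided, Benjamini-Hochberg adjustment over all 13916 genes tested), PRDM3/16KO over Control, no covariate. Fold changes are log2, SE is the coefficient over the root of F, and intervals cover counting error only. Exon lengths and overlaps are from GENCODE M21, in which 79 member symbols matched directly and Atp5sl by a synonym. The procedure was tested on simulated data. Alternatives were other scalings, filters and tools (limma-voom with limma 3.58.1, DESeq2 1.42.0), a replicate block, covariates of mesenchymal markers or Y-linked transcripts, libraries left out and a threshold of 0.01.

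Members and lists were chosen with earlier results of these data known. Genes were named by rule: up to 4 called members of each complex with the smallest p and the 1 with the most counts per kb, calls of at least 0.5 on the log2 scale, subunit c and tissue isoform genes, subunits outside the symbol rule, 8 regulators, the targeted genes, and up to 3 calls with the smallest p per other list. Other genes (other core and head subunits and others without the smallest p of their list, overlap partners, cell markers and genes that could not be tested) were named after their values were seen. The NRF1 and ZNF143 motifs were first searched in longer forms, then cut to shorter cores after those results were seen; the shorter NRF1 core matched more promoters, of members and of all genes. Values of 1 member, which is in the counts, are not reported here. Roles within complexes were assigned by textbook knowledge.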

Additional observations from a re-analysis of the deposited data

Results flagged for a closer look

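In 9 of 134 groups of values, 1 library lay apart from the others of its group by a gap that chance gives in about 1 of 20 groups. Control library 4 was high in 5 of them. It had 28.2 CPM of Ndufa4l2 (the other Control libraries, 13.6 to 18.8), 113 CPM of Cox8a (91.8 to 99.6), 47.6 CPM of Esrra (35.5 to 38.8), 296 CPM of Dlst (241 to 256) and 66.6 CPM of Grpel1, a mitochondrial import chaperone (53.8 to 58.6). Cyc1 was low in Control library 2, at 30.4 CPM (34.4 to 36.3). In PRDM3/16KO, Atp5g1 was low in library 5 at 1.85 CPM (3.20 to 3.67), Cox7a2 was high in library 2 at 8.66 CPM (6.16 to 6.62), and Gabpa was high in library 1 at 139 CPM (120 to 125).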

How the results depend on the processing

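Over 24 alternatives, 2 to 4 members were higher and, except for library-size scaling (6), the mesenchymal covariate (4) and a threshold of 0.01 (9), 15 to 22 lower. Under each of these exceptions a smaller share of members than of all genes was lower (at 0.01, 9 of 75 members and 2176 of 13916 genes). With 1 library left out, members higher ranged from 2 to 4, members lower from 16 to 22 and the members' median from -0.18 to -0.11, and calls over all genes from 2643 to 3120 higher and 2618 to 3269 lower. Without Control libraries 5 and 6, 3 members were higher and 19 lower. With library-size scaling the members' median was -0.047, and 65.4% of calls over all genes were higher, against 49.2% with TMM (57.9% with upper-quartile factors). With the mesenchymal covariate, 1738 genes were higher and 1784 lower. With Y-linked transcripts, uneven between the groups, as covariate, 3 members were higher and 17 lower, and the members' median was -0.11. The causes were not tested.

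Directions of genes not called as reported reversed as follows. With library-size scaling, Atp5b was at 0.041, Cox4i1 at 0.016, Cyc1 at 0.044, Gabpa at 0.014, Tfam at 0.078 and Yy1 at 0.074; with upper-quartile factors Tfam was at 0.032 and Yy1 at 0.025. With the mesenchymal covariate, Atp5g1 was at -0.12, Atp5g2 at -0.29, Cox6b2 at -0.064, Cycs at -0.021 and Tfam at 0.0066. Without Control libraries 5 and 6, Cox7a2l was at -0.087, Cycs at -0.042 and Tfam at 0.066. With 1 library left out, values ran from -0.083 to 0.18 for Atp5g1, from -0.010 to 0.14 for Cox7a2l and from -0.073 to 0.026 for Tfam.

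The labels do not say whether replicate numbers pair the libraries. Same-numbered libraries deviated together at correlations of -0.064, 0.099, -0.052, 0.0065 and 0.26, and only number 5 was its own best partner. Such correlations cannot decide whether libraries shared a litter or batch. With the replicate block, 3 members were higher and 20 lower, 18 of them shared, with a median of -0.17, and 3079 genes were higher and 3118 lower; Tfam was at 0.029. Genes with few counts (Sdhb, Cox6a2) are limited by depth.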
